A study of Homo sapiens and Mus musculus with 12 samples.

Results

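GFI1 promoter peaks were the 896 GFI1 peaks of THP1 cells with a summit no more than 1000 bp from where a protein-coding transcript begins, out of 3461 GFI1 peaks called in that line (25.9%, 95% Wilson interval 24.5 to 27.4). The starts were those of 89067 protein-coding transcripts in GENCODE release 44 on GRCh38, and the choice used position alone, not the strength of a peak. The remaining 2565 GFI1 peaks comprised 1231 inside a protein-coding gene and 1334 outside such genes, and they served for comparison. The 5 peak lists of human cells in the series held 12513 peaks in all.

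THP1 is a monocytic leukaemia line that carries a KMT2A fusion, and K562 is an erythroleukaemia line. In THP1 cells, chromatin was precipitated with antibodies against GFI1 and against SPI1. In Cas9-expressing K562 cells carrying a non-targeting guide RNA (sg-NT), it was precipitated against LSD1 and against GFI1, and in Cas9-expressing K562 cells carrying a guide RNA against LSD1 (sg-LSD1), against GFI1. All 3 K562 libraries thus shared Cas9, the labels give 1 library for each line and antibody, and LSD1 was not mapped in THP1 cells. Cells were fixed with both formaldehyde (1%) and the protein crosslinker DSG (1.5 mM), and 5 µg of antibody was used each time. The other 7 libraries of the series (3 inputs and 4 H3K4me1 libraries of mouse bone marrow) were not used here. Since no group had a replicate, no test between libraries was possible, intervals cover counting error only, and peaks of 1 library are not independent samples.

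GFI1 is a zinc finger repressor of blood cells that reads DNA through the core AATCAC. Through its SNAG domain it recruits LSD1, a histone demethylase, together with the CoREST scaffold and histone deacetylases, and genes close to its sites are typically held down. SPI1 (PU.1) is the activating ETS factor of the myeloid lineage, whose targets GFI1 is known to oppose.

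The strongest promoter sites showed both the presence and the absence of the core. Windows of 100 bp centred on the summit are given from the plus strand of GRCh38 for the 5 members with the largest −log10 p among those that held AATCAC within 25 bp of the summit, and the capitals mark AATCAC or its reverse complement GTGATT. They are SMAP2 at chr1:40344792-40344891, TMEM237 at chr2:201642855-201642954, COL9A2 at chr1:40316026-40316125, ACVR2A at chr2:147844809-147844908 and CAMSAP2 at chr1:200739166-200739265.
SMAP2: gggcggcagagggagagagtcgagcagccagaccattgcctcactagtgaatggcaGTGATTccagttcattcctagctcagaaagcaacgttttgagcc
TMEM237: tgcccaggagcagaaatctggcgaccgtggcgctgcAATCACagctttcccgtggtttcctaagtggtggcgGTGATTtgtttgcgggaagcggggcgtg
COL9A2: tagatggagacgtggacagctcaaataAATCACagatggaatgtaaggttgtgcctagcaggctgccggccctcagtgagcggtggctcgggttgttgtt
ACVR2A: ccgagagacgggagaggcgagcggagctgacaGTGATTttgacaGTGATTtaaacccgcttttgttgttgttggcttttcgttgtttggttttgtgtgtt
CAMSAP2: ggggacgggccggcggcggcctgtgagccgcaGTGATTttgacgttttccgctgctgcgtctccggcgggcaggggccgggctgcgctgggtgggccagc
TMEM237 and ACVR2A each held 2 copies of the core in these 100 bp, and the other 3 windows held 1.

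Peaks of like height also stood on windows without even the shorter core AATC within 25 bp of the summit. Shown for contrast are 3 of the 4 strongest members of this kind (the other is IMPA2), with AATC or GATT farther out in capitals: ALG14 at chr1:95072643-95072742, ELOVL1 at chr1:43368559-43368658 and ZFP69B at chr1:40450292-40450391.
ALG14: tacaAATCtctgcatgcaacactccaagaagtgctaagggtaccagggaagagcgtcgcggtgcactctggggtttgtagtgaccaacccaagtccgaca
ELOVL1: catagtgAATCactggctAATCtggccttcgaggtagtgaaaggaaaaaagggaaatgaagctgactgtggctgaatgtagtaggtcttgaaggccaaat
ZFP69B: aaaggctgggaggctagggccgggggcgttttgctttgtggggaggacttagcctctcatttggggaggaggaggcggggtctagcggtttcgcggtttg
The ZFP69B window held no AATC in all 100 bp. ELOVL1 and ZFP69B, like SMAP2 and COL9A2 above, lie in the stretch of chromosome 1 with high local background that is described below. Windows at GFI1 itself and at HDAC7, chosen after their values were seen, are shown with AATC or GATT in capitals, GFI1 at chr1:92486376-92486475 and HDAC7 at chr12:47820438-47820537.
GFI1: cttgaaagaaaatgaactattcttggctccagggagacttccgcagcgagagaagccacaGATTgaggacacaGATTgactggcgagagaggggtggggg
HDAC7: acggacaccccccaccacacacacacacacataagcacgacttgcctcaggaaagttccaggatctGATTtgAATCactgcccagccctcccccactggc
Both windows held 2 copies of the short core. The windows of ELOVL1 and HDAC7 also held the full AATCAC once each, of which only the first letters are capitals here, more than 20 bp from the summit in both.

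The strength of a peak is given by the fold enrichment over the local background at the summit and by the −log10 of the peak caller's p value. The caller adds 1 fragment to both sides of the fold and draws p from a Poisson law. The number of fragments piled at each summit and the local background could therefore be solved from these values. Only whole numbers of fragments were tried. The best one gave back the −log10 p within a relative tolerance of 0.0002 for 100% of the 3461 peaks. The median promoter peak had 11 fragments at its summit (quartiles 9 and 16, range 6 to 272) over a local background of 0.60 fragments. Most members therefore rested on few fragments. Their median fold of 6.97 (quartiles 5.63 and 9.37) stood beside 7.41 in the other GFI1 peaks, and their median −log10 p of 11.2 beside 11.8. Members were somewhat wider, with a median of 442 bp against 404 bp.

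The most significant member lay 8 bp upstream of a start of SMAP2, an ARF GTPase-activating protein of Golgi-derived vesicles. It had 272 fragments over a background of 6.60, which gave 35.9 as the fold and 327 as the −log10 p. The highest fold of any member, 46.2, belonged to TMEM237, a protein of the ciliary transition zone, where the summit lay 39 bp into the gene with 73 fragments over 0.60 (−log10 p 124). ALG14, which builds the sugar chains of glycoproteins, followed with a fold of 41.2 and 65 fragments, 258 bp downstream of its start. RGMB, a co-receptor of bone morphogenetic proteins, had a fold of 41.1 with 60 fragments at 18 bp upstream. All 4 summits lay within 300 bp of a start.

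Next by −log10 p stood ELOVL1, an elongase of very long chain fatty acids, with a fold of 20.9 at 95 fragments over 3.60. HDAC7, a class IIa histone deacetylase, had a fold of 38.1 with 58 fragments, 85 bp inside the gene, and a second, weaker peak at another of its starts with a fold of 7.06. IMPA2, an inositol monophosphatase, had a fold of 34.4 with 50 fragments. The remaining members among the 20 with the largest −log10 p had folds between 11.2 and 29.4. They lay at DMWD, ZFP69B, NUDT7 (a peroxisomal coenzyme A diphosphatase), the interferon-induced gene IFIT3, TBC1D4 (a Rab GTPase-activating protein), TMEM243, the collagen gene COL9A2, SEPTIN10 together with SOWAHC, the kinase gene CDC42BPB, the activin receptor gene ACVR2A, ARHGAP45, the lipid kinase gene PI4K2A and YAP1, the effector of Hippo signalling.

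A group of the strong members stood on an unusually high local background. Of the 896 members, 36 (4.02%) had a background of at least 2 fragments, against 3.12% of the other GFI1 peaks, and 20 of the 36 lay between positions 39577029 and 43650721 of chromosome 1, at 17 genes. Their background had a median of 5.26 fragments (range 2.05 to 8.40), which is 10.8 times the floor of 0.484 that the caller used for this library. Among the members outside this stretch the highest background was 3.00, and 18 of the 20 exceeded it. SMAP2 with its 3 peaks, ELOVL1, ZFP69B, COL9A2, ZNF684 and both CAP1 peaks belonged to it. The −log10 p values there were raised relative to the folds: ZFP69B ranked 9 by −log10 p and 136 by fold, COL9A2 ranked 14 and 127, and SMAP2 ranked 1 and 5.

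The local background of the same stretch was also high in the SPI1 list of THP1 cells. The 43 SPI1 peaks there had a median background of 3.71 fragments, against 0.530 over the 1803 SPI1 peaks elsewhere, and the 61 GFI1 peaks there, promoter or not, had 4.77 against 0.60. In sg-NT K562 cells the 21 LSD1 peaks of the stretch had 0.778 against 0.867. The high background thus stood in both THP1 lists and not in the LSD1 list of K562 cells. The sources do not say whether both THP1 lists drew their background from the same input, so they may not be separate measurements. The part of the high background in the rank of these members was not tested.

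The summits gathered close to the starts. The median distance to the nearest coding start was 309.5 bp (quartiles 113.5 and 574.25). Within 100 bp lay 206 members (23.0%), within 200 bp 333 (37.2%) and within 500 bp 614 (68.5%). Members were spread over both sides, 429 downstream (47.9%, 44.6 to 51.2) and 467 at or upstream of the start. By bins of 100 bp, the 2 flanking the start held 101 and 105 members, and the count fell more steeply downstream, to 51 in the next bin, than upstream, where the next bin held 76. Some 222 summits (24.8%) fell in an exon of a protein-coding transcript, 393 (43.9%) in an intron and 281 (31.4%) outside all such transcripts.

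At the edge of the rule, the members just inside 1000 bp were STAT6 at 1000 bp (fold 5.35), PTPN1 at 992 bp (fold 5.82) and ELMO1 at 992 bp (fold 5.91). The peaks just outside it were near ZIC1 at 1001 bp (fold 6.06), LAPTM4B at 1002 bp (fold 7.41) and FNBP1 at 1007 bp (fold 4.72). Peaks on either side of the limit were alike in height.

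The members reached 937 of 19702 protein-coding genes (4.76%, 4.47 to 5.06), since 84 of the 896 had more than 1 gene in reach. The reverse also occurred: 44 of the 937 genes had several promoter peaks, 3 each at SMAP2 and at the nucleoside transporter gene SLC29A1, and 2 each at the other 42, among them GFI1, HDAC7, ACTG1 and CAP1. Starts on both strands lay within reach of 70 summits (7.81%). Seen by gene, 129 of the 937 genes (13.8%) shared their start region with a gene on the other strand, against 2420 of 18764 genes without a GFI1 promoter peak (12.9%). The difference of 0.870 percentage points had an interval from −1.25 to 3.27 (Newcombe), so that no preference for or against two-sided promoters was detectable at this number of genes.

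GFI1 promoter peaks lay in DNA of intermediate base composition. The median GC content in the 200 bp around the summit was 57.5% (quartiles 50.4 and 67), above the 46.5% of the other GFI1 peaks and below the 66.5% at the canonical starts of all protein-coding genes. The ratio of observed to expected CpG was ordered alike, with medians of 0.700, 0.255 and 0.818. Windows of members lay at a median of 309.5 bp from a start, whereas those of the starts were centred on the start. The part of this placement in the differences was not tested.

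The GFI1 core was more frequent at the summits than beside them. AATCAC, on either strand, was found in the central 50 bp of 80 members (8.93%, 7.23 to 11.0), against 2.68% of windows 2000 bp to either side and 0.858% of windows at the canonical starts of all protein-coding genes. It was 10.1% over all GFI1 peaks and 10.5% at those away from promoters. Promoter and other peaks differed by −1.56 points, with an interval from −3.66 to 0.778 that included 0. In windows of 200 bp the difference was −3.62 points (−6.88 to −0.215), without 0 in the interval. The short core AATC, which is contained in AATCAC, separated them: it stood in 395 members (44.1%) and in 53.3% of the others, a difference of −9.25 points (−13.0 to −5.45). In the windows beside the summits it reached 28.6%, and at all starts 12.4%. The GC content of the promoter windows was higher as given above, and its part in this difference was not tested. AAATCAC stood in 6.14% of members, 6.16% of other peaks and 0.725% of the windows beside the summits.

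Stronger members held the core more often. With the members divided by −log10 p into 4 groups of 224 peaks, from the strongest to the weakest, AATCAC was found in 13.8%, 9.82%, 6.70% and 5.36%. AATC was found in 59.8%, 50%, 36.2% and 30.4%. No difference by distance from the start was detectable, as AATCAC stood in 8.71% of the 333 members within 200 bp of a start and in 9.06% of the other 563 (difference 0.350 points, −3.75 to 4.05).

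The cores of other factors gave a mixed picture, with 19 cores searched on both strands. Windows of members were centred on the summit and windows of starts on the start itself, so these shares compare different positions. GGGCGG, the GC box of SP and KLF factors, stood in 11.7% of members, 1.83% of other GFI1 peaks and 18.3% of all starts. CCGGAAGT, the core of ETS factors at housekeeping promoters, stood in 1 member (0.112%) and in 2.62% of all starts. CACGTG, the E-box of MYC and USF, stood in 15 members (1.67%), against 0.624% of other peaks and 1.47% of starts. Cores of the RUNX, GATA and IRF factors were rarer at promoters than at the other GFI1 peaks. TGTGGT of the RUNX factors stood in 2.34% against 7.76% (difference −5.41 points, −6.78 to −3.86). AGATAA of the GATA factors stood in 1.12% against 2.81% (−1.69 points, −2.57 to −0.602). GAAANNGAA of the IRF factors, N being any base, stood in 1.45% against 2.73% (−1.28 points, −2.20 to −0.117). At all starts the 3 shares were 1.60%, 0.716% and 1.09%, each under that of the members. The part of GC content in these differences was not tested. For GAGGAAGT, a core of SPI1, the shares were 1.00% and 1.99%, with an interval of the difference from −1.76 to 0.0270. The core TTGCGCAA of the C/EBP factors went the other way, in 3 members (0.335%) and 1 other peak (0.0390%). The difference was 0.296 points (0.00993 to 0.942). TTTCCCGC of the E2F factors had the same counts, 3 members and 1 other peak. Such counts are too small to set either family apart.

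SPI1 peaks of the same cell line were rarely found at GFI1 promoter peaks. Sharing at least 1 bp, 20 members (2.23%, 1.45 to 3.42) met an SPI1 peak, against 173 other GFI1 peaks (6.74%) and 5.58% of all GFI1 peaks. The difference was −4.51 points (−5.81 to −3.02). The share was 6.58% for GFI1 peaks in gene bodies and 6.90% outside genes. The SPI1 list itself had 247 of its 1846 peaks at promoters (13.4%), against 25.9% of the GFI1 list. The part of this lower promoter share in the difference was not tested. Of the 247 promoter peaks in the SPI1 list, 20 (8.10%) met a GFI1 peak. Against the whole SPI1 list of 1846 peaks, 193 GFI1 peaks met one. Without the GFI1 peaks of high background, members and others alike, the share of members at SPI1 peaks was 1.98% and the difference −4.62 points (−5.90 to −3.14).

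The 5 strongest shared with SPI1 were SMAP2 (SPI1 fold 7.61), ELOVL1 (6.37), TMEM243 (11.4), HERPUD1, a protein of the endoplasmic reticulum stress response (8.55), and PPM1M, a protein phosphatase (6.80). Genes of myeloid cells were also among the 20: TYROBP and FCER1G, the signalling adaptors of Fc and related receptors, had GFI1 folds of 11.3 and 7.14 and SPI1 folds of 11.9 and 9.16. The receptor gene CD244 had the highest SPI1 fold of the 20, 17.4, at a GFI1 fold of 5.93. FFAR2, S100A11, the glucocorticoid receptor gene NR3C1 and NFKB1 were shared as well. These last names were chosen after their values were seen. SMAP2, ELOVL1 and CAP1 come from the stretch of high background.

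LSD1 peaks of sg-NT K562 cells were found at GFI1 promoter peaks of THP1 more often than at other GFI1 peaks. They met 134 members (15.0%, 12.8 to 17.4), against 167 of the 2565 others (6.51%) and 8.70% of all GFI1 peaks. The difference was 8.44 points (6.03 to 11.1). LSD1 itself had 1650 of its 6548 peaks at promoters (25.2%), and 131 of these (7.94%) met a GFI1 peak of THP1 cells. Against the whole LSD1 list of 6548 peaks, 301 GFI1 peaks of THP1 cells met one. Because the lists come from different cell lines, joint binding in a cell was not measured.

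By gene, 205 of the 937 genes with a GFI1 promoter peak in THP1 had an LSD1 summit within 1000 bp of a start in K562 (21.9%), against 1493 of the 18765 others (7.96%), a difference of 13.9 points (11.4 to 16.7). The same comparison for SPI1 gave 3.63% and 1.21%, a difference of 2.42 points (1.38 to 3.83). Genes with a GFI1 promoter peak thus carried promoter peaks of both factors more often than genes without one.

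The 5 strongest members at an LSD1 peak were TMEM237 (LSD1 fold 6.80), IMPA2 (12.6), TMEM243 (17.0), CDC42BPB (9.82) and ACVR2A (10.8). In the 4 groups by −log10 p, from the strongest to the weakest, LSD1 met 22.3%, 13.8%, 12.1% and 11.6% of the members. The 134 had a median fold of 7.84 and the other 762 members one of 6.87, with quartiles that overlapped (5.94 to 11.5 and 5.62 to 8.95). The core was as frequent in both, with AATCAC in 8.96% and 8.92% and a difference of 0.0313 points (−4.34 to 6.35).

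Few members were shared with the GFI1 peaks of K562 cells. With sg-NT, 24 members (2.68%, 1.81 to 3.95) met a K562 GFI1 peak, against 2.22% of other peaks and 2.34% of all, a difference of 0.456 points (−0.629 to 1.83). With sg-LSD1, 12 members (1.34%, 0.768 to 2.33) did, against 0.975% and 1.07%, a difference of 0.365 points (−0.369 to 1.40). Counted over THP1 peaks, the promoter class did not stand apart beyond counting error here. The K562 lists were shorter, at 498 and 160 peaks, of which 60 and 17 lay at promoters. This was a smaller part than the 25.9% of the THP1 list. Of these K562 promoter peaks, 25 (41.7%) and 12 (70.6%) met a THP1 GFI1 peak. Over the whole K562 lists of 498 and 160 peaks, 81 and 37 THP1 GFI1 peaks met one. As parts of the 3461 THP1 peaks these are 2.34% and 1.07%, which have another denominator than the 41.7% and 70.6%. How far the smaller promoter part of the K562 lists shaped the count over THP1 peaks was not tested.

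Of the 24 members shared with sg-NT K562 cells, 21 (87.5%, 69.0 to 95.7) also met the LSD1 peaks of those cells and 4 (16.7%, 6.68 to 35.9) a GFI1 peak of sg-LSD1 cells. Of the 12 members shared with sg-LSD1 cells, the same 4 (33.3%, 13.8 to 60.9) met a GFI1 peak of sg-NT cells and 8 did not. The 4 were CAMSAP2, a protein of microtubule minus ends, BOD1, a protein of chromosome alignment, NBPF1 and METTL9. At CAMSAP2 the GFI1 fold was 24.4 in THP1, 8.45 in sg-NT and 8.56 in sg-LSD1 K562 cells. At BOD1 it was 24.4, 9.80 and 8.66. At NBPF1, which belongs to a family of near-identical copies so that reads may be misplaced, it was 16.6, 10.9 and 10.0. At METTL9 it was 8.08, 4.76 and 5.72. These 4 were chosen by a peak in both lists, so their folds say nothing of the members with a peak in only 1 of them, and absence from a list says only that no peak was called there. CAMSAP2, BOD1 and NBPF1 were also the strongest members shared with sg-LSD1 cells, followed by HNRNPD, an RNA-binding protein (THP1 fold 16.2, sg-LSD1 fold 7.66), and MPZL1, a cell surface glycoprotein (10.9 and 6.15), neither of which met a GFI1 peak of sg-NT cells.

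The 5 strongest members shared with sg-NT K562 cells were TMEM237 (K562 GFI1 fold 8.40), HDAC7 (8.60), IMPA2 (9.39), TMEM243 (7.50) and ACVR2A (13.6), and none of them met a GFI1 peak of sg-LSD1 cells. The highest K562 fold of a member, 28.1, was at TIGAR, a regulator of glycolysis, with 32 fragments and a fold of 22.2 in THP1 and an LSD1 fold of 40.9. Members shared with sg-NT cells were strong, with a median of 23.5 fragments (quartiles 14.75 and 40.5) against 11 in the other 872. AATCAC stood in 5 of the 24 (20.8%) and in 8.60% of the rest, a difference of 12.2 points (0.464 to 31.9). For AATC the shares were 62.5% and 43.6%, and the interval of the difference, −1.14 to 35.6, included 0. Of the 24, 18 were in the strongest of the 4 groups by −log10 p, where AATCAC stood in 13.8%. Peak strength was thus not held equal in this comparison. In all, 739 members (82.5%) met no peak of the other 4 lists, against 86.5% of the other GFI1 peaks.

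At the gene for GFI1 itself, 2 promoter peaks were called. The stronger lay 329 bp upstream of the nearest start, with 21 fragments over a background of 1.03 (fold 10.9, −log10 p 21.2, rank 132 of 896). The weaker had 9 fragments and a fold of 4.54, 228 bp downstream of a start. Neither met a peak of SPI1 in THP1 or of any K562 list.

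GFI1 and genes linked to it, as targets or partners, had a promoter peak in 5 of 25 cases (20%, 8.86 to 39.1), beside 4.76% of all protein-coding genes. This list and those below were written with earlier results of these data known. ID3 and ID2 encode inhibitors of basic helix-loop-helix factors. ID3 had a fold of 22.2 with 32 fragments, ID2 one of 8.67 with 13, and both met an LSD1 and a GFI1 peak of sg-NT K562 cells (GFI1 folds 8.24 and 8.27). GFI1 followed, and the homeobox gene MEIS1 had a fold of 5.95 at 8 fragments. SPI1, CSF1, CSF1R, CEBPA, CEBPE, MYC, IRF8 and CDKN1A were among the 20 without one.

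Of 16 genes known to be kept active by KMT2A fusions, 4 had one (25%, 10.2 to 49.5): HOXA10 with a fold of 12.1 and 17 fragments, RUNX2 with 7.41, MEF2C with 5.91 and MEIS1. Of 40 transcription factors of blood lineages, 5 did (12.5%, 5.46 to 26.1), among them GFI1, RUNX2, MEF2C and CEBPD (5.00). With peaks of a −log10 p of at least 8 alone, 3 of the 40 did, beside 748 of all 19702 protein-coding genes. These 3 lists share genes and are not separate evidence. The peaks at RUNX2, MEF2C, MEIS1 and CEBPD each rested on 12 or fewer fragments.

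Among 22 monocyte markers, 3 had a promoter peak (13.6%, 4.75 to 33.3), TYROBP, FCER1G and the scavenger receptor gene CD163 (6.91). Of 33 interferon response genes, 3 did (9.09%): IFIT3, with a fold of 27.5 and 43 fragments 823 bp from the start, and PSMB9 and TAP1, which share a peak with a fold of 6.22. Of 14 neutrophil granule genes BPI alone had one (10.8). None of 18 lymphoid, 17 erythroid or 28 immediate early genes had one, which allows shares of up to 16.7%, 17.6% and 10.7%. With a distance of 5000 bp, 1411 of all 19702 protein-coding genes had a peak. Among the immediate early genes 7 then had one, among the lymphoid genes 1 and among the erythroid genes 0. Monocyte markers had 5, interferon response genes 3 and neutrophil granule genes 3 at that distance. The limits thus hold for 1000 bp alone.

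Of the chromatin complexes that GFI1 works with, LSD1-CoREST had 1 of 13 genes with a peak, the corepressor gene CTBP1 (fold 7.01), and NuRD 1 of 15, MBD2 (8.18). Of 36 splicing factors 4 had one (11.1%, 4.41 to 25.3), HNRNPD (16.2), HNRNPR (9.92), HNRNPC (9.43) and HNRNPF (8.59), all of the hnRNP family. Of 48 proteasome subunits 5 did (10.4%, 4.53 to 22.2), led by PSMB1 (10.8), which shares its peak with TBP, and PSMA1 (8.08), then PSME3 (6.81) and PSMB3 (6.74). Intervals of these lists reached down to the background of 4.76%, or close to it.

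Lists near or under the background were cytosolic ribosomal proteins with 4 of 80 (5%), RPL23A (9.11), RPL19 (6.87), RPL15 (6.47) and RPS3A (5.91), and clustered histone genes with 3 of 69, H4C16 (7.50) and the pair H2AC25 and H2BC26 that shares a peak (6.91). ZNF genes had 17 of 509 (3.34%, 2.10 to 5.28), the strongest being ZNF684 (10.6), from the stretch of high background, ZNF57 (14.9), ZNF575 (14.4) and ZNF521 (12.8). Mitochondrial ribosomal proteins had 2 of 78, MRPL51 (7.35) and MRPS26 (4.63), translation initiation factors 1 of 56, EIF4E1B (5.95), and cell cycle regulators 1 of 34, CCND3 (5.65).

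**Figure D1:**
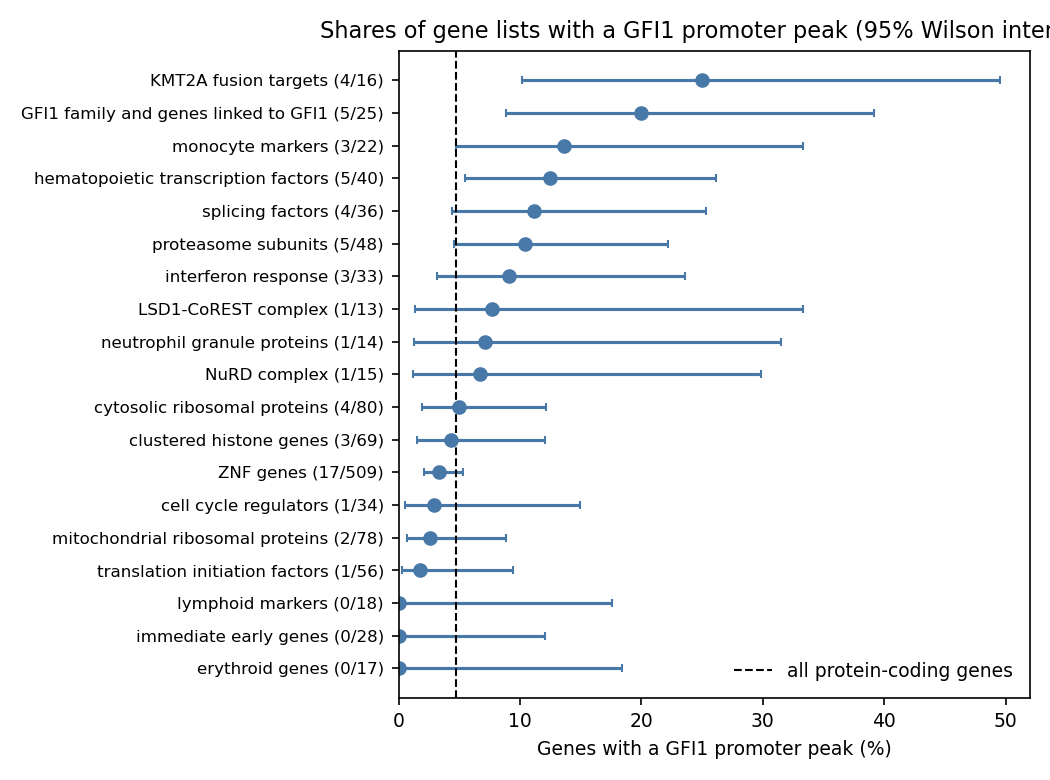
Share of each of 19 gene lists with a GFI1 promoter peak in THP1 cells, with 95% Wilson intervals; the dashed line marks the 4.76% of all protein-coding genes. The intervals are wide for short lists, and the KMT2A targets and the genes linked to GFI1, GFI1 included, reach the highest shares, at 25% and 20%. The lists were written with earlier results of these data known.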

How the data were processed

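Peak lists of 5 human ChIP-seq libraries were used. According to the study's methods and the labels' tool list, reads were trimmed (Trim Galore 0.6.1), aligned to GRCh38 (Bowtie2 2.5.4), freed of duplicates (Picard 3.1.0) and peaks were called per library at p under 1e-05 (MACS2 2.2.9.1), with blacklisted regions removed. The use of the inputs as controls is not given in the sources used here. The deposited values are the fold enrichment at the summit and its −log10 p value and −log10 q value. The offset of the summit is a position in the deposited lists. The lists give no read totals, so library depth is unknown.

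Here, starts were taken from GENCODE 44 and sequence from GRCh38 with Python 3.11.15, pandas 2.3.3, scipy 1.17.1, pysam 0.24.0 and samtools 1.23.1. A member took the name of the gene with the nearest coding start. Transcripts of other types of protein-coding genes were left out; with them the members would number 983. Shares carry 95% Wilson intervals, differences Newcombe intervals, and a count of 0 a limit of 3 counts. Recovery of fragments was tested on data simulated with the same formula (100% of 3461 peaks). The members and gene lists were chosen with earlier results of these data known. Named were the 20 members with the largest −log10 p, the 5 strongest at each other list, up to 4 per gene list, GFI1, and 3 peaks on either side of 1000 bp. Values of some members of the gene lists are not reported here. The alternatives concerned distance, starts, thresholds, overlap, motif and window.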

Additional observations from a re-analysis of the deposited data

How the results depend on the processing

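For the main values, 83 alternatives were computed, of which 62 stayed within the counting error of the value reported (or within 1.5 times a count), 20 moved and 1 turned the direction. Of 38 more for single gene lists, 14 moved: the hematopoietic factors (5 to 3) and mitochondrial ribosomal proteins (2 to 1) fell with a −log10 p of at least 8, and the others rose with 5000 bp. The promoter share was 17.7% with a distance of 500 bp, 39.0% with 5000 bp, 20.7% with canonical transcripts alone and 28.4% with every transcript of a protein-coding gene, an alternative chosen after seeing the data. With 5000 bp, 1411 genes and 90 genes of the lists, in place of 55, had a peak. Two-sided promoters made up 5.54% with 500 bp and 5.73% with canonical transcripts. The median −log10 p of promoter minus other peaks, −0.582, was −0.326 with 500 bp, and in fold it was −0.439. The share at SPI1 peaks was 1.00% with summits at most 200 bp apart. The share at LSD1 peaks was 12.6% with overlap of 50% of the shorter peak, 11.3% with summits at most 200 bp apart and 18.2% with gaps of up to 500 bp. Under all 9 alternatives the SPI1 difference stayed between −4.77 and −3.94 points and the LSD1 difference between 6.40 and 10.2, without 0 in any interval. AATCAC stood in 17.4% of windows of 100 bp and 25.1% of 200 bp, AATC in 44.1% and AAATCAC in 6.14% of windows of 50 bp. The ratio of AATCAC at the summits to that beside them, 3.33, was 10.8 against starts without a peak and 2.17 with windows of 200 bp, and it turned to 0.851, under 1, against other GFI1 peaks. In windows of 200 bp the difference between promoter and other peaks excluded 0, which it did not in windows of 50 bp. The window and the core set these values by construction. No paired analysis was possible because each group compared held 1 library. Leaving out a replicate was not possible either. Peaks of few fragments limit what the lists can show.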

Other observations

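Among the 2069 hexamers seen in the central 50 bp of the members, those with the largest excess over windows 300 bp to either side were variants of the GFI1 core. AAATCA, or its reverse complement, stood in 15.4% of members and in 2.57% of the windows beside them. AATCAG stood in 10.0% and 2.12%, AATCAC in 8.93% and 1.51%, and CAAATC in 8.26% and 1.95%. The base after AATCA was thus G at least as often as C. The comparison was chosen after seeing the data and is given without a test.

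Chromosome X held 1 member, at AP1S2 (fold 6.06, 8 fragments), and 2 GFI1 peaks in all. Of 853 protein-coding genes there, 0.117% (0.0207 to 0.661) had a promoter peak, against 1.88% on chromosome 8 and 7.76% on chromosome 6, the lowest and highest of the other chromosomes apart from Y. The LSD1 list of sg-NT K562 cells reached 0.586% of the genes on X. Whether the lists as used here hold every peak called on chromosome X is not known, so these shares describe the lists and not the binding there.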
